A study of Mus musculus with 18 samples.

Results

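The MHC class I presentation genes comprised the heavy chain genes *H2-K1*, *H2-D1* and *H2-T23*, the light chain gene *B2m*, the peptide transporter genes *Tap1* and *Tap2*, the tapasin gene *Tapbp* and its relative *Tapbpl*, the trimming peptidase gene *Erap1* and the regulator gene *Nlrc5*. These 10 genes were chosen by name from knowledge of the pathway, with earlier results of these data known. By Ensembl identifier, all 10 were found among the 55029 genes listed for 12 of the libraries and the 54232 listed for the other 6. All 10 passed the filter on low counts in both sets. In GRCm38, 6 of them lie on chromosome 17, *Tapbp* at chr17:33915899-33929292 (plus strand), *H2-K1* at chr17:33996017-34000347 (minus), *Tap1* and *Tap2* as given with their values, *H2-D1* at chr17:35262730-35267499 (plus) and *H2-T23* at chr17:36029773-36032855 (minus). *B2m* lies at chr2:122147686-122153083 (plus), *Tapbpl* at chr6:125223933-125231860 (minus), *Erap1* on chromosome 13 and *Nlrc5* at chr8:94434356-94527272 (plus).

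RNA was counted per gene in 18 libraries of eosinophils to ask how these cells respond to stimuli of type 1 and type 2 immunity. The cells were washed from the peritoneal cavity of C57BL/6 mice carrying the NJ.1638 *Il5* transgene, and cells binding antibodies to Thy1.2 or B220 were removed with beads. They were then kept for 18 h in medium with heat-inactivated *E. coli*, with IFN-γ at 50 ng/ml, with both, or with IL-4 at 100 ng/ml, with 3 libraries for each stimulus, and the time in culture of unstimulated cells was not given. Unstimulated cells gave libraries a to c, deposited in the file layout of the *E. coli* and IFN-γ libraries, and libraries d to f, in that of the IL-4 libraries. All groups carried the transgene, so the unstimulated cells came from mice with excess IL-5, and neither the age nor the sex of the mice was given in the sources used here. The study calls its replicates biological, and whether each came from a separate animal or culture was not given in the sources used here, so p-values measure the spread between these libraries. Counts on genes ranged from 1523808 to 2734041 per library in the 12-library set (*E. coli*, IFN-γ, both and unstimulated a to c) and from 3625036 to 6482289 per library in the 6-library set (IL-4 and unstimulated d to f). Levels are given in CPM, counts scaled by the TMM-normalised library total. Within each set, stimulated and unstimulated cells were compared by the quasi-likelihood test of edgeR, and a gene was called higher or lower at a Benjamini-Hochberg adjusted p under 0.05 over all genes tested. The study also required a change of at least 2-fold, and member counts with that added are given under the dependence on processing.

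MHC class I molecules display peptides from proteins made inside the cell to CD8 T cells. Proteasomes cut the proteins, TAP carries the peptides into the endoplasmic reticulum, ERAP1 trims them, and tapasin and TAPBPR help load them onto a heavy chain paired with β2-microglobulin. IFN-γ is known to raise transcription of most of these genes through factors such as IRF1 and NLRC5, and it brings in the immunoproteasome, whose subunits cut peptides better suited to class I grooves.

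The members that passed the test were lower with *E. coli* and higher with IFN-γ, with both and with IL-4. With *E. coli* alone, 4 of the 10 members were called lower (*Tap1*, *Tap2*, *Tapbpl* and *Nlrc5*), where 16.7% of the 9883 genes tested were lower. After the correction for a count limit described below, 7 were called, with *H2-K1*, *H2-D1* and *Tapbp* added, of which *H2-D1* lay so near the limit that its corrected values are uncertain. The share of 16.7% belongs to the uncorrected counts, and that of all genes after the correction is not given here. By edgeR 0 were called higher (also 0 at an unadjusted p under 0.05 and 0 by DESeq2), where 13.5% of all genes were. With IFN-γ, 7 of 10 were higher, against 15.6% of all genes, and 0 were lower (0 unadjusted, 0 by DESeq2), against 16.0%. With IFN-γ and *E. coli* together, 8 of 10 were called higher, against 23.9%, and 0 lower (0 unadjusted, 0 by DESeq2), against 25.2%. These 8 include *B2m*, whose counts lay at a limit described below and whose call was lost in several alternatives, given with its values. With IL-4, 4 of 10 were higher (*H2-T23*, *Tap1*, *Tap2* and *Nlrc5*), against 5.97% of the 10556 genes tested, and 0 lower (0 unadjusted, 0 by DESeq2), against 4.35%. The median log2 fold change of the members was -0.32 with *E. coli*, 0.98 with IFN-γ, 0.92 with both and 0.42 with IL-4, where that of all genes lay between -0.04 and 0.00. In the direction in which members were called, their share exceeded that of all genes with each of the 4 stimuli. The comparisons with *E. coli*, IFN-γ and both share unstimulated libraries a to c. The share of counts on mitochondrial genes was 1.73% to 2.34% in unstimulated libraries a to c, 1.57% to 1.86% with *E. coli*, 2.01% to 2.31% with IFN-γ and 2.06% to 2.39% with both. The mitochondrial gene *mt-Rnr2* had the highest count, 4093 and 4095, in unstimulated library a and replicate 2 of both stimuli, next to the limit described below, and this share was larger in libraries with smaller totals, 2.39% at 1523808 counts and 1.57% at 2734041, so it is not read as a difference between stimuli. In the 6-library set it was 2.44% to 4.35% unstimulated and 3.53% to 4.23% with IL-4. Its part in the results was not tested. In bulk RNA, fewer cells of a type and less RNA per cell cannot be told apart.

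**Figure D1:**
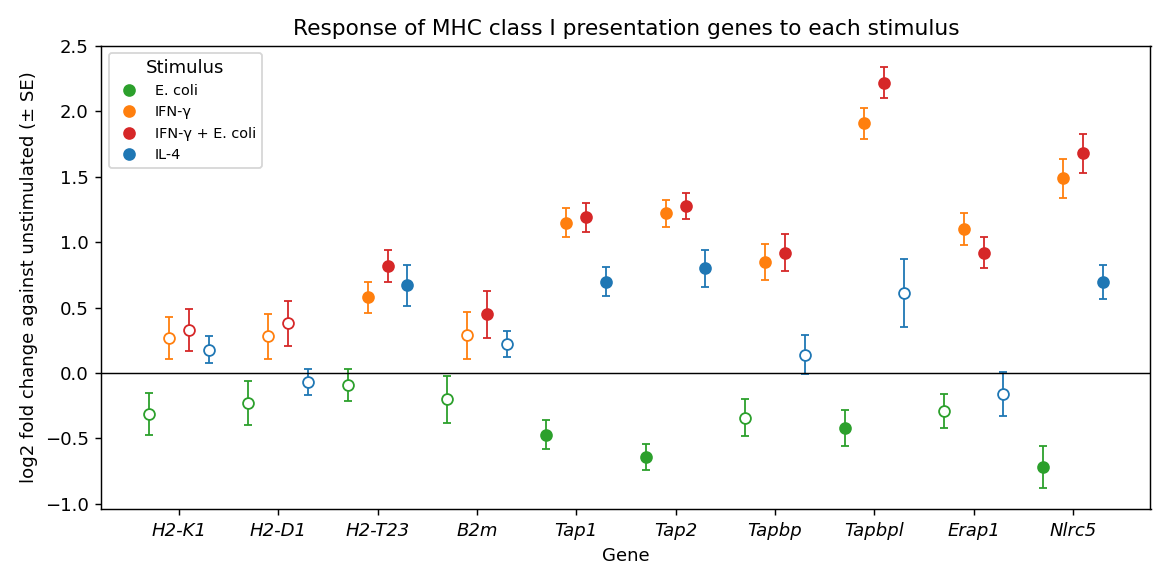
The plot gives the log2 fold change of each member against the unstimulated libraries of the same set (y axis) for 4 stimuli (colours), with bars of ± SE from edgeR and 3 libraries a group. Filled points passed an adjusted p under 0.05 and open points did not. *Tapbpl* reached 1.91 with IFN-γ and 2.22 with both, while *Nlrc5* stood at -0.72 with *E. coli*.

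The deposited counts of 3 members lay close to a limit in the 12-library set, and this bears on how their values can be read. In these 12 libraries no gene exceeded 4095 counts, and the highest count in a library was between 4089 and 4095. The number of different tags that 6 random bases can form is 4096, and CEL-Seq2 labels each molecule with a short random tag. Its length here and whether tags were collapsed were not given in the sources used here. *B2m* stood at 98.6% to 99.9% of 4096 in every library of this set, *H2-D1* at 91.4% to 98.9% and *H2-K1* at 77.8% to 95.2%. *Tapbp* stood at 31.7% to 59.3% and *H2-T23* at 25.3% to 46.7%, and the other 5 members at or under 32.5%. The 6-library set showed no such limit, since its highest gene had 87377 to 191131 counts in a library. Fold changes were therefore also computed after each count was corrected for molecules that share a tag, with all 4096 tags taken as equally frequent.

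**Figure D2:**
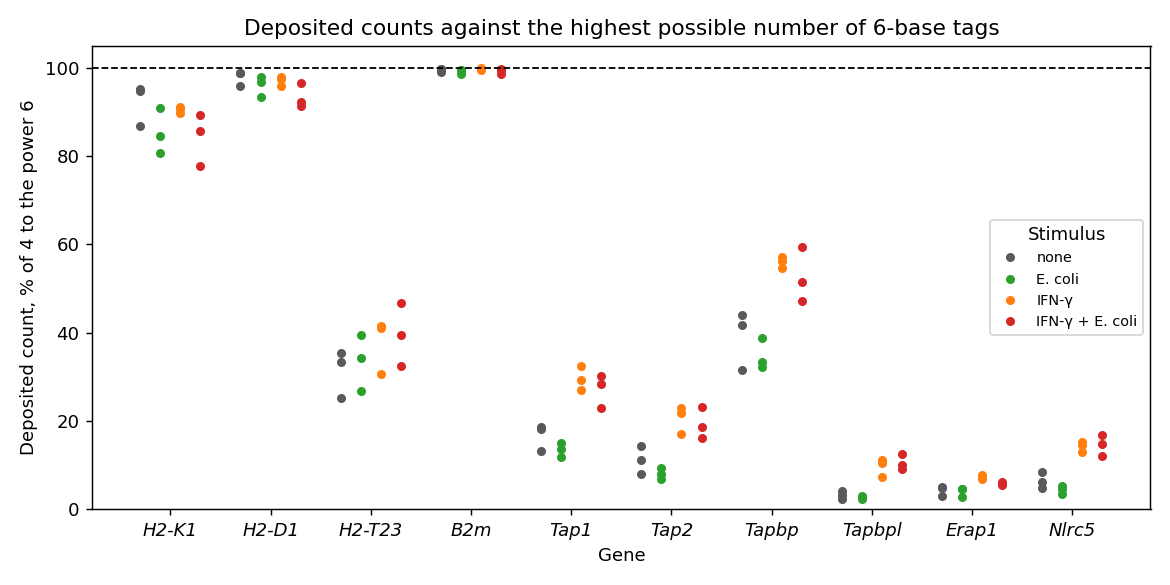
Points give the deposited count of each member as a percentage of 4096 (y axis) in each library of the 12-library set, coloured by stimulus, and the dashed line marks 100%. *B2m* lay between 98.6% and 99.9% in all 12 libraries, whatever the stimulus.

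The heavy chains form the peptide groove. *H2-K1*, which encodes the classical chain H-2K, measured 1454, 2252 and 1602 CPM in unstimulated libraries a to c, 1414, 1245 and 1631 with *E. coli*, 2090, 1886 and 2430 with IFN-γ, and 2328, 2006 and 2315 with both. The classical chain gene *H2-D1* measured 1510, 2489 and 1673 CPM in unstimulated libraries, 1619, 1340 and 1888 with *E. coli*, 2248, 2045 and 2567 with IFN-γ, and 2735, 2167 and 2495 with both. For both genes unstimulated library b was the highest of its group, had the smallest total of the group, 1562034 counts, and lay above all *E. coli* libraries and fell among those with IFN-γ and with both. The log2 fold change of *H2-K1* was -0.31 ± 0.16 (SE, adjusted p = 0.15) with *E. coli*, 0.27 ± 0.16 (adjusted p = 0.197) with IFN-γ and 0.33 ± 0.16 (adjusted p = 0.0905) with both. That of *H2-D1* was -0.23 ± 0.17 (adjusted p = 0.346), 0.28 ± 0.17 (adjusted p = 0.236) and 0.38 ± 0.17 (adjusted p = 0.0699). Neither gene passed the test with any of these stimuli in edgeR. With both stimuli DESeq2 called *H2-D1* higher, at 0.41 (adjusted p = 0.0492), and with no filter on low counts edgeR called *H2-K1*, at 0.32 (adjusted p = 0.034), and *H2-D1*, at 0.38 (adjusted p = 0.00912). Without unstimulated library b, both passed it with IFN-γ, at 0.51 for *H2-K1* and 0.55 for *H2-D1*, and with both stimuli, at 0.56 and 0.65. Without that library the value of *H2-D1* with *E. coli* was 0.04. After the correction for the count limit, both genes were called lower with *E. coli*, *H2-K1* at -0.62 (adjusted p = 0.000466) and *H2-D1* at -0.47 (adjusted p = 0.00245). Corrected values with IFN-γ were 0.18 (adjusted p = 0.239) and 0.16 (adjusted p = 0.274), below the uncorrected ones. With both stimuli the corrected values were 0.01 (adjusted p = 0.939) for *H2-K1* and -0.04 (adjusted p = 0.764) for *H2-D1*, the latter turned in sign. Counts of *H2-D1* reached 98.9% of the limit in unstimulated libraries a and c, where the corrected level turns on a few counts, so its corrected values are uncertain. Corrected values of *H2-K1*, with counts at up to 95.2% of the limit, rest on tags being equally frequent, which was not tested.

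*H2-T23*, which encodes the nonclassical chain Qa-1 recognised by NKG2A receptors, stood well below the count limit. Its level was 509, 657 and 597 CPM in unstimulated libraries, 572, 542 and 541 with *E. coli*, 941, 870 and 819 with IFN-γ, and 1183, 1047 and 879 with both. The IFN-γ libraries and those with both stimuli all lay above the unstimulated and *E. coli* libraries, which overlapped each other. *H2-T23* rose by 0.58 ± 0.12 (SE, adjusted p = 0.0015) with IFN-γ and 0.82 ± 0.12 (adjusted p = 2.54e-05) with both on the log2 scale, and its change with *E. coli* was -0.09 ± 0.12 (adjusted p = 0.635), or 0.02 without unstimulated library b. Class I heavy chain genes resemble each other, so that reads can be lost or shared between copies. Of the last 300 bases of its transcripts, read in windows of 50 bases, 50.6% of the windows of *H2-T23* also occurred in another gene, against 17.1% for *H2-D1* and 0.797% for *H2-K1*. Their values are uncertain to that extent. When *H2-K1*, *H2-D1* and all *H2-Q*, *H2-T* and *H2-M* genes were summed, the total changed by -0.26 ± 0.15 (adjusted p = 0.208) with *E. coli*, 0.35 ± 0.15 (adjusted p = 0.0824) with IFN-γ and 0.47 ± 0.15 (adjusted p = 0.0141) with both. This sum holds the counts of *H2-K1* and *H2-D1* near the limit, uncorrected, and corrected values of these genes with both were 0.01 and -0.04, so its call is not read as a rise.

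*B2m* encodes β2-microglobulin, the light chain without which class I molecules do not reach the surface. Its level was 1524, 2572 and 1688 CPM in unstimulated libraries, 1665, 1364 and 1995 with *E. coli*, 2290, 2092 and 2674 with IFN-γ, and 2951, 2241 and 2689 with both. Its counts spanned only 4040 to 4092 over the 12 libraries, and the highest CPM of each group came from the library with the smallest total. Its counts were 4090, 4058 and 4087 unstimulated and 4041, 4091 and 4077 with both stimuli, so differences in its CPM follow the library totals and are not read as a change of the gene. From these values edgeR gave 0.45 ± 0.18 on the log2 scale with both stimuli (adjusted p = 0.0471), and the groups overlapped. This call was lost without unstimulated library a (0.30, adjusted p = 0.22) or c (0.36, adjusted p = 0.165), and without replicate 1 (0.38, adjusted p = 0.133) or 3 (0.45, adjusted p = 0.0752) of the libraries with both stimuli. It was also lost with at least 10 counts required in every library (0.39, adjusted p = 0.0816) and with only the 6 libraries compared in the fit (0.44, adjusted p = 0.0764). Its change was 0.29 ± 0.18 (adjusted p = 0.241) with IFN-γ and -0.20 ± 0.18 (adjusted p = 0.435) with *E. coli*. Without unstimulated library b these were 0.58 (adjusted p = 0.0105) and 0.08, the first then called. After correction for the count limit, the values of *B2m* were 0.48 (adjusted p = 0.0123) with IFN-γ, 0.40 (adjusted p = 0.0205) with both and -0.34 (adjusted p = 0.0659) with *E. coli*. So close to the limit the corrected level turns on a few counts, and these values are uncertain as well.

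*Tap1* and *Tap2* encode the subunits of the transporter that moves peptides into the endoplasmic reticulum. *Tap1* measured 279, 344 and 313 CPM in unstimulated libraries, 228, 207 and 240 with *E. coli*, 673, 682 and 725 with IFN-γ, and 685, 679 and 769 with both. *Tap2* measured 218, 210 and 190 CPM in unstimulated libraries, 132, 128 and 138 with *E. coli*, 498, 483 and 455 with IFN-γ, and 481, 518 and 502 with both. For both genes the *E. coli* libraries were the lowest, the unstimulated libraries came next without overlap, and the libraries with IFN-γ and with both stimuli were the highest and overlapped each other. *Tap1* fell by 0.47 ± 0.11 on the log2 scale with *E. coli* (SE, adjusted p = 0.00315) and rose by 1.15 ± 0.11 with IFN-γ (adjusted p = 2.11e-07) and 1.19 ± 0.11 with both (adjusted p = 5.38e-08). *Tap2* fell by 0.64 ± 0.10 with *E. coli* (adjusted p = 0.000105) and rose by 1.22 ± 0.10 with IFN-γ (adjusted p = 3.05e-08) and 1.28 ± 0.10 with both (adjusted p = 6.01e-09). *Tap1* lies on chromosome 17 in GRCm38, at chr17:34187553-34197225 on the plus strand, and *Tap2* at chr17:34203527-34216321 on the same strand. The strand setting of the counting was not given in the sources used here, so reads from genes on opposite strands cannot be told apart where exons overlap. *Tap1* shares up to 212 exon bases with *Psmb9* on the other strand, and *Tap2* up to 165 with *Gm15821* and 140 with *Gm20496*.

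**Figure D3:**
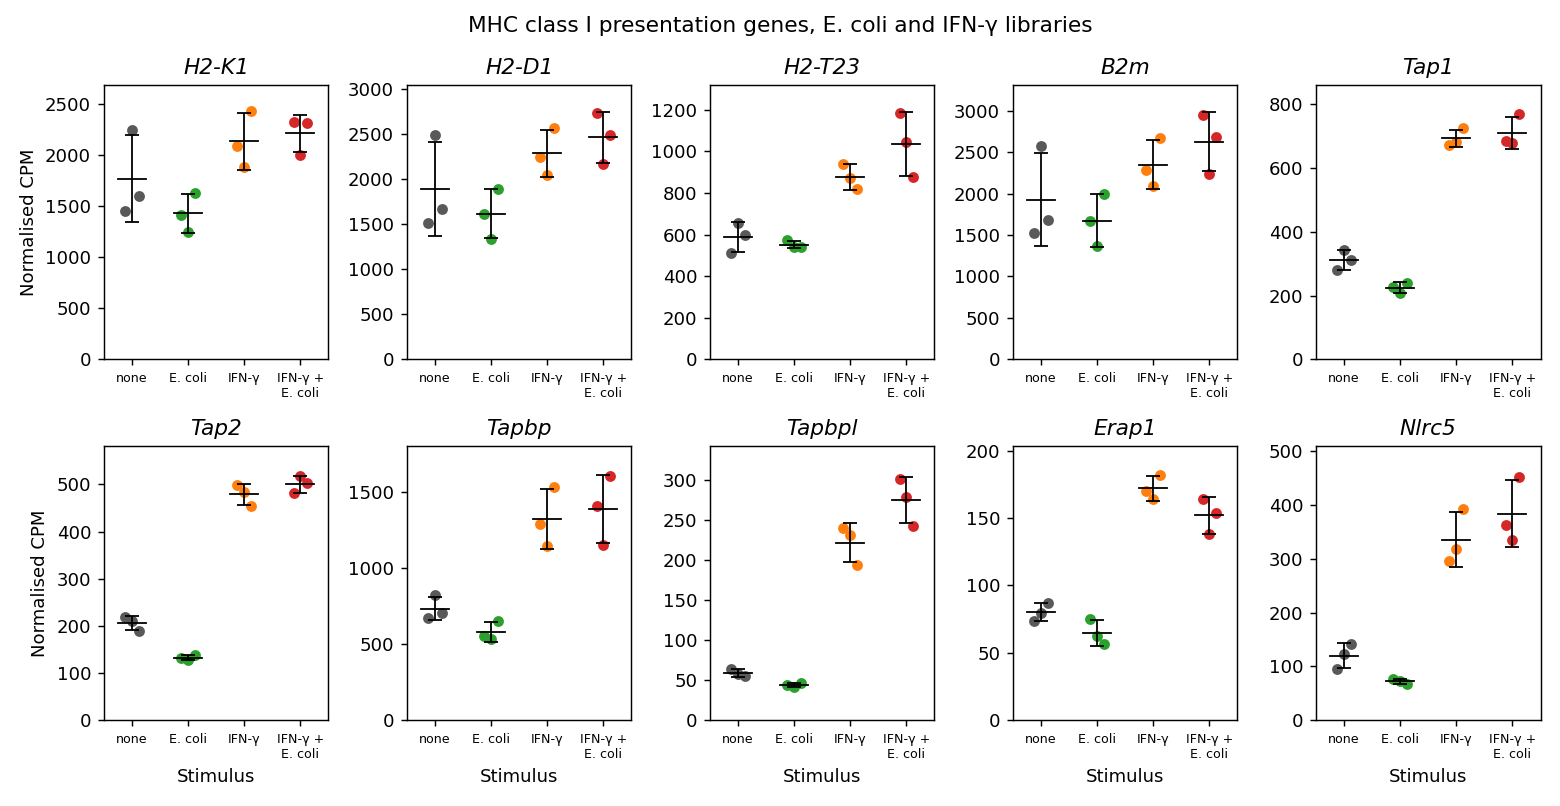
Each panel plots the level of 1 member in CPM (y axis) in the 12-library set by stimulus (x axis), with points for libraries and bars for mean ± SD (n = 3). The libraries with IFN-γ lay above all unstimulated libraries for *Tap1*, *Tap2*, *Tapbp*, *Tapbpl*, *Erap1*, *Nlrc5* and *H2-T23*, and overlapped them for *H2-K1*, *H2-D1* and *B2m*.

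Tapasin bridges TAP and the empty class I molecule, and TAPBPR, the product of *Tapbpl*, edits the bound peptides outside that complex. *Tapbp* measured 673, 822 and 707 CPM in unstimulated libraries, 556, 533 and 652 with *E. coli*, 1291, 1146 and 1532 with IFN-γ, and 1409, 1154 and 1602 with both. *Tapbpl* measured 64.1, 57.7 and 54.9 CPM in unstimulated libraries, 44.5, 41.5 and 46.4 with *E. coli*, 240, 232 and 194 with IFN-γ, and 301, 279 and 243 with both. Both genes were lowest with *E. coli* and highest in the presence of IFN-γ, with no overlap between unstimulated libraries and any of these stimuli. *Tapbpl* rose by 1.91 ± 0.12 (SE, adjusted p = 1.23e-09) on the log2 scale with IFN-γ and by 2.22 ± 0.12 (adjusted p = 6.04e-11) with both, the largest changes among the 10 members. *Tapbp* rose by 0.85 ± 0.14 (adjusted p = 0.000133) and 0.92 ± 0.14 (adjusted p = 2.83e-05). With *E. coli*, *Tapbpl* fell by 0.42 ± 0.14 (adjusted p = 0.0236), and *Tapbp* changed by -0.34 ± 0.14 (adjusted p = 0.0784) without passing the test. The call of *Tapbpl* with *E. coli* was lost without unstimulated library a (-0.35, adjusted p = 0.118) and without *E. coli* replicate 1 (-0.42, adjusted p = 0.0636) or 2 (-0.37, adjusted p = 0.109). It was also lost with no filter on low counts (-0.38, adjusted p = 0.0889). After the correction for the count limit *Tapbp* fell with *E. coli* by 0.39 (adjusted p = 0.0489). Exons of *Tapbp* share up to 306 bases with *Gm19412* on the other strand and 88 with *Zbtb22* on the same strand.

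*Erap1* encodes the aminopeptidase that shortens peptides to the length of the groove. Its level was 73.4, 79.9 and 86.7 CPM in unstimulated libraries, 75.5, 62.9 and 56.8 with *E. coli*, 170, 164 and 182 with IFN-γ, and 164, 138 and 154 with both. The libraries with IFN-γ or both stimuli lay above the rest, and the *E. coli* libraries overlapped the unstimulated ones. *Erap1* rose by 1.10 ± 0.12 (SE, adjusted p = 1.49e-06) with IFN-γ and 0.92 ± 0.12 (adjusted p = 6.58e-06) with both on the log2 scale. With *E. coli* it changed by -0.29 ± 0.13 (adjusted p = 0.0909), or -0.41 (adjusted p = 0.0444) without *E. coli* replicate 1. *Erap1*, at chr13:74639568-74693201 on the plus strand, shares up to 834 exon bases with *Cast* on the other strand, the longest such overlap found for a member.

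*Nlrc5* encodes the transactivator that binds class I promoters through a complex of DNA-binding factors. Its level was 95.4, 123 and 141 CPM in unstimulated libraries, 76.3, 72.9 and 68.1 with *E. coli*, 295, 318 and 392 with IFN-γ, and 362, 334 and 452 with both. The *E. coli* libraries lay below and the IFN-γ libraries above all unstimulated libraries. *Nlrc5* fell by 0.72 ± 0.16 (SE, adjusted p = 0.00194) on the log2 scale with *E. coli* and rose by 1.49 ± 0.15 (adjusted p = 4.81e-07) with IFN-γ and 1.68 ± 0.15 (adjusted p = 4.00e-08) with both. Its exons share up to 78 bases with *9330175E14Rik* on the other strand.

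The comparison of both stimuli with IFN-γ alone asked what the bacteria add. Between the libraries with both stimuli and those with IFN-γ, edgeR called 0 of 10 members higher and 0 lower, against 6.25% and 5.98% of all genes. At an unadjusted p under 0.05 the counts were 1 higher and 0 lower, and DESeq2 called 0. The member with the smallest p was *Tapbpl*, at 0.31 ± 0.11 (SE, adjusted p = 0.0918), whose groups did not overlap. Without replicate 3 of the libraries with both stimuli it was called higher, at 0.37 (adjusted p = 0.0407). The other 9 members lay between -0.18 and 0.24, *Erap1* being the lowest and *H2-T23* the highest. Several of these values turned in sign. Without IFN-γ replicate 2, *H2-K1* stood at -0.04 and *Tapbp* at -0.03, and without replicate 3 of both stimuli *Tap1* stood at -0.04 and *Tapbp* at -0.06. After the correction for the count limit, *H2-K1*, *H2-D1* and *B2m* stood at -0.17, -0.20 and -0.08.

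Against *E. coli* alone, members were higher in the libraries with IFN-γ, with or without bacteria. With both stimuli against *E. coli*, 10 of 10 members were called higher, *B2m* at the count limit included, against 17.5% of all genes, and 0 lower (0 unadjusted, 0 by DESeq2), against 15.3%. The log2 fold changes were 2.64 ± 0.13 for *Tapbpl*, 2.40 ± 0.16 for *Nlrc5*, 1.92 ± 0.10 for *Tap2* and 1.66 ± 0.11 for *Tap1* (SE), and the lowest was 0.61 ± 0.17 for *H2-D1*. Without *E. coli* replicate 2, the calls of *H2-D1* (0.49, adjusted p = 0.063) and *B2m* (0.52, adjusted p = 0.0607) were lost. With IFN-γ against *E. coli*, 9 of 10 were higher by edgeR, against 14.1% of all genes, and 0 lower (0 unadjusted, 0 by DESeq2), against 11.5%. *B2m* was the exception at 0.49 ± 0.18 (adjusted p = 0.0533), and it was called without *E. coli* replicate 3, at 0.63 (adjusted p = 0.0205), by DESeq2, at 0.50 (adjusted p = 0.0383), and with no filter on low counts, at 0.48 (adjusted p = 0.00106). It was also called with only the 6 libraries compared, at 0.49 (adjusted p = 0.0126), after the correction for the count limit, at 0.82 (adjusted p = 0.000167), and with the replicate number as a block, at 0.50 (adjusted p = 0.000167). For *H2-D1*, at 0.50 ± 0.17 (adjusted p = 0.0368), the call was lost without *E. coli* replicate 1 (0.50, adjusted p = 0.0921) or 2 (0.38, adjusted p = 0.172) and without IFN-γ replicate 1 (0.51, adjusted p = 0.077) or 3 (0.41, adjusted p = 0.152). For *H2-K1*, at 0.58 ± 0.16 (adjusted p = 0.00934), it was lost without *E. coli* replicate 2 (0.49, adjusted p = 0.0571) or IFN-γ replicate 3 (0.48, adjusted p = 0.0596). In both comparisons the CPM groups of all 10 members did not overlap, and how often this held over all genes is not given here. For *H2-K1*, *H2-D1* and *B2m* these CPM come from counts near the limit. After its correction they were called higher at 0.63, 0.43 and 0.75 with both stimuli. With IFN-γ they were called at 0.80, 0.63 and 0.82. Corrected values of *H2-D1* and *B2m* are uncertain, and those of *H2-K1* rest on tags being equally frequent, which was not tested.

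The interaction asked whether *E. coli* changed these genes differently in the presence of IFN-γ than without it. A value above 0 means that the joint change exceeded the sum of the separate log2 changes. By edgeR, 3 of 10 members were called higher, against 2.58% of all genes, and 0 lower (0 unadjusted, 0 by DESeq2), against 2.04%. *Tap2* had an interaction of 0.70 ± 0.14 (SE, adjusted p = 0.00696), *Tapbpl* of 0.73 ± 0.18 (adjusted p = 0.0217) and *Nlrc5* of 0.91 ± 0.21 (adjusted p = 0.0184). For these genes the *E. coli* libraries lay below the unstimulated ones, while the libraries with both stimuli did not lie below those with IFN-γ. The call of *Tap2* held when any of the 12 libraries was left out. That of *Tapbpl* was lost without unstimulated library a (0.65), *E. coli* replicate 1 (0.73) or 2 (0.67), IFN-γ replicate 3 (0.62), or replicate 1 (0.64) or 2 (0.70) of both stimuli, and that of *Nlrc5* without unstimulated library c (0.76), *E. coli* replicate 2 (0.90), or IFN-γ replicate 1 (0.82) or 2 (0.85). *Tap1* stood at 0.51 ± 0.15 (adjusted p = 0.0698) and was called by DESeq2, at 0.51 (adjusted p = 0.0388), and with at least 10 counts in every library, at 0.52 (adjusted p = 0.0386).

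IL-4 is the type 2 cytokine of the series, and its libraries were compared with unstimulated libraries d to f. Unstimulated library e stood apart, with a chi-square per degree of freedom over genes of 23.7 against library d, where libraries d and f differed by 7.86. Pairs of IL-4 libraries differed by 3.72 to 5.25 and pairs of the same group in the other set by 1.64 to 6.04, and no pair of replicates was identical. Without library e, 6 of 10 members were called higher with IL-4, with *B2m* (0.25, adjusted p = 0.0398) and *Tapbp* (0.32, adjusted p = 0.0302) added. The share of all genes called higher was 5.97% with all libraries, and that without library e is not given here. The number of all genes called also moved when libraries were left out, with its range given under the processing. The range over the 6 libraries left out in turn was 2 to 6 members, the lowest without IL-4 replicate 2.

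*Tap1* measured 218, 212 and 236 CPM in unstimulated libraries d to f and 335, 385 and 358 with IL-4, and *Tap2* measured 148, 117 and 150 CPM and then 234, 266 and 222. *Nlrc5* measured 134, 113 and 115 CPM in unstimulated libraries and 195, 216 and 177 with IL-4. The IL-4 libraries lay above the unstimulated ones for all 3 genes. *Tap1* rose by 0.70 ± 0.11 (SE, adjusted p = 0.00378), *Tap2* by 0.80 ± 0.14 (adjusted p = 0.00461) and *Nlrc5* by 0.70 ± 0.13 (adjusted p = 0.00686) on the log2 scale. The call of *Nlrc5* was lost without IL-4 replicate 2 (0.62, adjusted p = 0.0576). *H2-T23* measured 68.3, 46.2 and 52.1 CPM in unstimulated libraries and 89.8, 85.7 and 88.1 with IL-4, again without overlap. It rose by 0.67 ± 0.16 (adjusted p = 0.0252). That call was lost without unstimulated library f (0.62, adjusted p = 0.0847) and without IL-4 replicate 1 (0.66, adjusted p = 0.114), 2 (0.68, adjusted p = 0.0988) or 3 (0.65, adjusted p = 0.0971).

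The remaining members did not pass the test with IL-4. *Tapbpl* measured 33, 14.1 and 21 CPM in unstimulated libraries and 31.8, 33.7 and 37.1 with IL-4, which overlapped, and changed by 0.61 ± 0.26 (SE, adjusted p = 0.178). Without unstimulated library d it was called higher, at 0.96 (adjusted p = 0.0189). *B2m* measured 8673, 9666 and 9611 CPM and then 11021, 10162 and 11464, without overlap, with a change of 0.22 ± 0.10 (adjusted p = 0.196). *H2-K1* measured 5107, 5547 and 5150 CPM and then 5873, 6108 and 5906, likewise without overlap, with a change of 0.18 ± 0.10 (adjusted p = 0.273). The groups of *H2-D1* (-0.07 ± 0.10, adjusted p = 0.728), *Tapbp* (0.14 ± 0.15, adjusted p = 0.601) and *Erap1* (-0.16 ± 0.17, adjusted p = 0.585) overlapped, and without unstimulated library d *Tapbp* stood at -0.00.

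**Figure D4:**
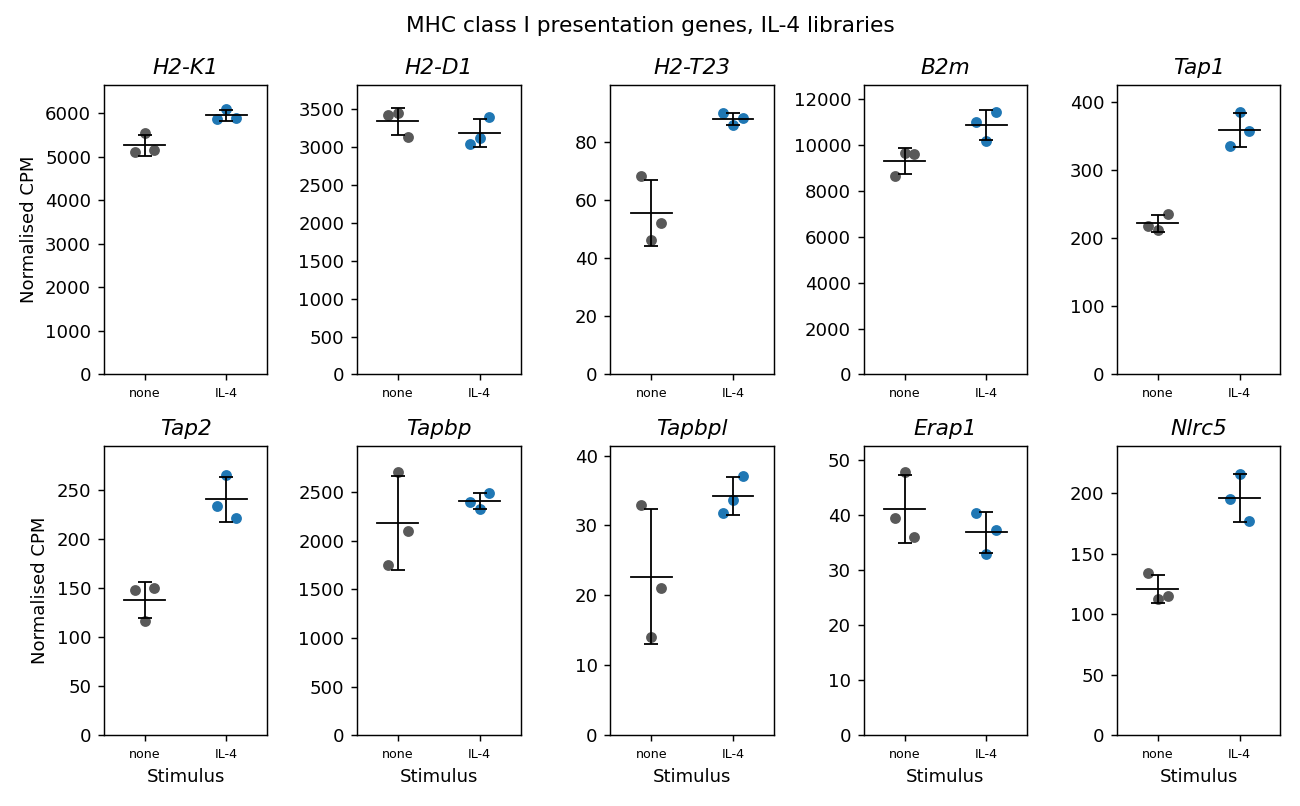
Each panel plots the level of 1 member in CPM (y axis) in unstimulated libraries d to f and in the IL-4 libraries (x axis), with points for libraries and bars for mean ± SD (n = 3). The IL-4 libraries lay above all unstimulated libraries for *H2-K1*, *H2-T23*, *B2m*, *Tap1*, *Tap2* and *Nlrc5*, of which *H2-K1* and *B2m* did not pass the test.

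The response to IL-4 was also set against that to IFN-γ in a model of all 18 libraries, in which each stimulus kept the unstimulated libraries of its own set. Since the sets differ in layout and count limit, the stimulus and the set cannot be told apart in these differences. The IL-4 response was lower than the IFN-γ response for 6 of 10 members (*Tap1*, *Tap2*, *Tapbp*, *Tapbpl*, *Erap1* and *Nlrc5*), against 14.7% of 10671 genes, and higher for 0 (edgeR; 0 unadjusted, 0 by DESeq2), against 13.0%. The difference was -1.32 ± 0.27 (SE, adjusted p = 0.000905) for *Tapbpl*, -1.30 ± 0.19 (adjusted p = 2.79e-05) for *Erap1*, -0.81 ± 0.21 (adjusted p = 0.00562) for *Nlrc5* and -0.75 ± 0.21 (adjusted p = 0.0124) for *Tapbp*. It was smaller for *Tap1*, -0.49 ± 0.15 (adjusted p = 0.0184), and *Tap2*, -0.45 ± 0.16 (adjusted p = 0.0386). The call of *Tap1* was lost without unstimulated library a (-0.41) or IL-4 replicate 1 (-0.45). That of *Tap2* was lost without unstimulated library c (-0.40), d (-0.40) or f (-0.39), IFN-γ replicate 1 (-0.43) or 2 (-0.45), or IL-4 replicate 1 (-0.43) or 3 (-0.40). With no filter on low counts both calls were lost, at -0.48 (adjusted p = 0.108) and -0.44 (adjusted p = 0.185), and that of *Tap2* also with at least 10 counts in every library, at -0.33 (adjusted p = 0.111). *H2-D1* became lower without unstimulated library b, at -0.63 (adjusted p = 0.0177).

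Against the response to both stimuli, the IL-4 response was lower for the same 6 members by name, against 20.7% of all genes, and higher for 0 (edgeR; 0 unadjusted, 0 by DESeq2), against 18.5%. The differences ran from -1.65 ± 0.27 (SE) for *Tapbpl* to -0.54 ± 0.16 for *Tap2*. With no filter on low counts *Tap1* (-0.51, adjusted p = 0.0598) and *Tap2* (-0.49, adjusted p = 0.0849) lost the call, and with at least 10 counts in every library *Tap2* (-0.38, adjusted p = 0.0565) did. Without unstimulated library b, *H2-D1* (-0.76, adjusted p = 0.0033) and *B2m* (-0.55, adjusted p = 0.0372) were called lower as well. *H2-T23* differed by 0.06 ± 0.20 (adjusted p = 0.86) from the IFN-γ response and by -0.21 ± 0.20 (adjusted p = 0.426) from the response to both, and neither passed the test. The first of these was -0.03 without unstimulated library b and -0.06 without library e. *B2m*, at -0.10 ± 0.24 (adjusted p = 0.806) against the IFN-γ response, stood at 0.05 without unstimulated library a and at 0.00 without IFN-γ replicate 3.

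Proteasomes act before TAP. The immunoproteasome subunits *Psmb8*, *Psmb9* and *Psmb10* and the PA28 activator subunits *Psme1* and *Psme2* were counted as a list of 5. With *E. coli* 4 of 5 were lower, with IFN-γ 5 of 5 higher, with both 5 of 5 higher and with IL-4 3 of 5 higher, where 16.7%, 15.6%, 23.9% and 5.97% of all genes were. *Psmb9* measured 193, 219 and 194 CPM in unstimulated libraries, 77.5, 66.2 and 96.8 with *E. coli*, 395, 389 and 389 with IFN-γ, and 318, 339 and 351 with both. It fell by 1.34 ± 0.13 (SE, adjusted p = 2.14e-07) with *E. coli* and rose by 0.95 ± 0.12 (adjusted p = 5.17e-06) with IFN-γ, and its overlap with *Tap1* on the other strand holds here too. *Psmb8* fell by 0.52 ± 0.12 (adjusted p = 0.00195) with *E. coli* and rose by 0.96 ± 0.12 (adjusted p = 3.87e-06) with IFN-γ and 0.56 ± 0.12 (adjusted p = 0.0186) with IL-4. All 3 IL-4 calls were lost without IL-4 replicate 1 (*Psmb8* 0.53, *Psmb9* 0.91, *Psmb10* 0.54) or 3 (0.49, 0.86 and 0.48), and that of *Psmb10* also without unstimulated library f (0.59) or IL-4 replicate 2 (0.55). The *E. coli* call of *Psme1* (-0.35 ± 0.12, adjusted p = 0.0321) was lost without unstimulated library b (-0.22) or *E. coli* replicate 1 (-0.31) or 2 (-0.31).

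The constitutive catalytic subunits made a list of 3. *Psmb5*, *Psmb6* and *Psmb7*, which the immune subunits replace, were all 3 higher with *E. coli*, by 0.70 ± 0.12, 0.51 ± 0.12 and 0.51 ± 0.11, and all 3 higher with both, against 13.5% and 23.9% of all genes. *Psmb5* stood at 0.32 ± 0.12 (adjusted p = 0.0404) with both, a call lost without unstimulated library a (0.28) or c (0.23) or replicate 2 (0.35) or 3 (0.30) of both stimuli. With IFN-γ none of the 3 passed the test, at -0.02 ± 0.12, 0.16 ± 0.13 and 0.11 ± 0.11 (adjusted p = 0.924, 0.375 and 0.513), where 15.6% of all genes were higher and 16.0% lower. The value of *Psmb5* there was 0.14 without unstimulated library b, 0.01 without IFN-γ replicate 2 and 0.05 without IFN-γ replicate 3. With IL-4 none passed it either, at -0.78 ± 0.24, -0.08 ± 0.12 and 0.04 ± 0.55 (adjusted p = 0.07, 0.716 and 0.972), where 5.97% of all genes were higher and 4.35% lower. *Psmb5* was called lower there without unstimulated library d (-0.92, adjusted p = 0.0422), and *Psmb7* stood at -0.34 without library e and -0.30 without IL-4 replicate 3. In the 6-library set *Psmb7* measured only 1.16 to 3.89 CPM and *Psmb5* 9.47 to 23.5 CPM, against 146 to 260 and 227 to 475 CPM in the 12-library set. The IL-4 values of *Psmb7* thus rest on few counts, and those of *Psmb5* on a far lower level than in the 12-library set.

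Among peptidases that act on peptides in the cytosol or endosomes, 5 of 7 listed genes were tested. With *E. coli* 2 were higher, with IFN-γ 3, with both 3 and with IL-4 1, where 13.5%, 15.6%, 23.9% and 5.97% of all genes were. *Lap3*, a leucine aminopeptidase, measured 53.7, 58.3 and 54.9 CPM in unstimulated libraries, 60.4, 72.6 and 73.6 with *E. coli*, 255, 249 and 276 with IFN-γ, and 281, 258 and 301 with both. It rose by 2.23 ± 0.12 (SE, adjusted p = 5.60e-11) with IFN-γ and by 0.70 ± 0.15 (adjusted p = 0.0138) with IL-4, a call lost without IL-4 replicate 1 (0.65) or 3 (0.67). *Npepps*, the puromycin-sensitive aminopeptidase, rose with *E. coli* by 0.92 ± 0.12 (adjusted p = 1.44e-05), with IFN-γ by 0.91 ± 0.12 (adjusted p = 1.62e-05) and with both by 1.46 ± 0.13 (adjusted p = 2.08e-08). The *E. coli* call of *Blmh* (0.47 ± 0.15, adjusted p = 0.0239) was lost without unstimulated library a (0.33) or c (0.45) or *E. coli* replicate 1 (0.48) or 2 (0.46). The IFN-γ call of *Lnpep* (0.35 ± 0.13, adjusted p = 0.0499) was lost without any 1 of unstimulated libraries a (0.35), b (0.37) and c (0.37) and IFN-γ replicates 1 (0.41), 2 (0.40) and 3 (0.31).

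The general chaperones of class I folding are *Calr*, *Canx* and *Pdia3*. None of the 3 passed the test with *E. coli*, IFN-γ or IL-4, where their values ran from -0.43 to 0.35. Over all genes, 13.5% were higher and 16.7% lower with *E. coli*, 15.6% and 16.0% with IFN-γ, and 5.97% and 4.35% with IL-4. A count of 0 among 3 genes lies near these shares and is not read as a result. Calls appeared with *E. coli* for *Calr* without *E. coli* replicate 1 (0.46) and for *Canx* without unstimulated library b (0.44), and with IL-4 for *Calr* without unstimulated library d (-0.53) or e (-0.38). With both stimuli *Canx* (0.45 ± 0.14, adjusted p = 0.0145) and *Pdia3* (0.36 ± 0.12, adjusted p = 0.018) rose, where 23.9% of all genes did. These calls were lost without unstimulated library a (0.32 and 0.34) or replicate 3 of both stimuli (0.28 and 0.27), and *Calr* was called without replicate 1 of both stimuli (0.45).

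Other class I and class I-like heavy chains made a list of 18 genes, of which 10 were tested in the 12-library set and 11 in the 6-library set. With *E. coli* 7 were lower (16.7% of all genes), with IFN-γ 5 higher and 1 lower (15.6% and 16.0%), with both 6 higher and 3 lower (23.9% and 25.2%), and with IL-4 3 higher and 1 lower (5.97% and 4.35%). *H2-Q4*, a nonclassical chain, fell by 0.76 ± 0.14 (SE, adjusted p = 0.000424) with *E. coli* and rose by 0.47 ± 0.13 (adjusted p = 0.0118) with IFN-γ, a call lost without unstimulated library a (0.43). *H2-M3*, which presents formylated peptides, fell by 0.79 ± 0.17 (adjusted p = 0.00143) with *E. coli* and rose by 0.75 ± 0.16 (adjusted p = 0.00123) with IFN-γ and 0.59 ± 0.16 (adjusted p = 0.0428) with IL-4. The IL-4 call of *H2-M3* was kept without unstimulated library e and lost without d (0.48), f (0.67) or IL-4 replicate 1 (0.67), 2 (0.58) or 3 (0.52). The other IL-4 calls were those of *H2-T22* (0.77 ± 0.20, adjusted p = 0.0318), lost without IL-4 replicate 1 (0.85), 2 (0.74) or 3 (0.71), and *Hfe* (0.73 ± 0.20, adjusted p = 0.0445), lost without unstimulated library d (0.65) or f (0.80) or IL-4 replicate 1 (0.84), 2 (0.83) or 3 (0.49). None of the 3 calls was thus kept without any 1 IL-4 library, and 1 was kept without library f. The *E. coli* call of *H2-Q7* (-0.42 ± 0.14, adjusted p = 0.028) was lost without unstimulated library b (-0.39) or c (-0.38) or *E. coli* replicate 1 (-0.31) or 2 (-0.30), and that of *H2-M3* with both (0.52 ± 0.16, adjusted p = 0.0112) without unstimulated library a (0.43) or replicate 3 of both stimuli (0.38). With IFN-γ, 3 were higher without unstimulated library a, and the gene called lower lost its call without unstimulated library a or b or any 1 IFN-γ library. With both, 1 was lower without unstimulated library a or without replicate 2 of both stimuli. *Cd1d1*, which presents lipids and does not use TAP, fell with IL-4 by 2.20 ± 0.30 (adjusted p = 0.00155).

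Of 14 transcription factors known to act on class I promoters, 4 were lower and 1 higher with *E. coli* (16.7% and 13.5% of all genes), 5 higher and 2 lower with IFN-γ (15.6% and 16.0%), 6 higher and 1 lower with both (23.9% and 25.2%), and 4 higher with IL-4 (5.97%). *Irf1* measured 290, 322 and 324 CPM in unstimulated libraries, 178, 183 and 191 with *E. coli*, 1315, 1293 and 1352 with IFN-γ, and 1299, 1250 and 1284 with both. It measured 265, 225 and 269 CPM in unstimulated libraries d to f and 505, 515 and 466 with IL-4. *Irf1*, like the TAP genes, was lowest with *E. coli*, and within each set its groups did not overlap except those with IFN-γ and with both. It fell by 0.76 ± 0.10 (SE, adjusted p = 1.52e-05) with *E. coli* and rose by 2.08 ± 0.10 (adjusted p = 2.47e-11) with IFN-γ, 2.04 ± 0.10 (adjusted p = 1.26e-11) with both and 0.97 ± 0.12 (adjusted p = 0.000782) with IL-4. *Irf2* changed by -0.44 ± 0.10, 0.81 ± 0.10, 0.59 ± 0.10 and 0.58 ± 0.14 in the same order of stimuli, and passed the test in all 4 comparisons. Its IL-4 call was lost without IL-4 replicate 1 (0.52), 2 (0.64) or 3 (0.57), and that of *Nfkb1* (0.64 ± 0.14, adjusted p = 0.0151) without IL-4 replicate 1 (0.64) or 2 (0.54), so that 2 were higher without either of these, and 1 was lower without unstimulated library e. The gene higher with *E. coli*, *Nfya* (0.53 ± 0.19, adjusted p = 0.0439), lost its call without unstimulated library a (0.38) or b (0.51) or *E. coli* replicate 1 (0.42) or 2 (0.60). With IFN-γ, *Nfkb1* (-0.31 ± 0.11, adjusted p = 0.0319) lost its call without unstimulated library a (-0.28), b (-0.29) or c (-0.33) or IFN-γ replicate 1 (-0.26) or 3 (-0.25). No factor was lower there without unstimulated library a, b or c or IFN-γ replicate 1, and 1 was without IFN-γ replicate 2 or 3. With both, *Rela* (0.43 ± 0.14, adjusted p = 0.0195) lost its call without unstimulated library c (0.40) or replicate 3 of both stimuli (0.32), and the factor called lower lost its call without unstimulated library b or c or replicate 1 or 2 of both stimuli.

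Of 9 genes of cross-presentation, by which peptides of engulfed proteins reach class I, 2 were higher and 2 lower with *E. coli*, where 13.5% and 16.7% of all genes were, 1 higher and 1 lower with IFN-γ (15.6% and 16.0%), and 4 higher and 2 lower with both (23.9% and 25.2%). With IL-4, 0 were higher and 0 lower by edgeR (5.97% and 4.35%). Both genes lower with *E. coli* lost their calls, *Cybb* (-0.37 ± 0.13, adjusted p = 0.0317) without unstimulated library b (-0.25) or c (-0.39) or *E. coli* replicate 1 (-0.37) or 2 (-0.29), and *Vamp8* (-0.33 ± 0.12, adjusted p = 0.0434) without unstimulated library a (-0.36) or b (-0.22) or *E. coli* replicate 1 (-0.29) or 2 (-0.26). With IFN-γ, 2 were higher without unstimulated library b or IFN-γ replicate 2, and 2 lower without unstimulated library a or c or IFN-γ replicate 1. *Sec22b*, which brings endoplasmic reticulum proteins to phagosomes, rose by 0.48 ± 0.13 (SE, adjusted p = 0.00853) with *E. coli*, and *Wdfy4* fell by 0.89 ± 0.18 (adjusted p = 0.000902) with IFN-γ. Of the genes *Susd6*, *Tmem127* and *Wwp2*, whose products direct class I molecules to degradation, 2 of 3 were higher with *E. coli*, 3 of 3 with IFN-γ and 3 of 3 with both, against 13.5%, 15.6% and 23.9% of all genes. *Susd6* rose by 0.58 ± 0.12 with *E. coli* (adjusted p = 0.00126), by 0.71 ± 0.12 with IFN-γ (adjusted p = 0.000209) and by 0.86 ± 0.12 with both (adjusted p = 1.26e-05). With IL-4 these 3 genes stood at -0.37 ± 0.17, -0.25 ± 0.13 and -0.12 ± 0.14, and none of the 3 passed the test, where 5.97% of all genes were higher and 4.35% lower. The *E. coli* call of *Wwp2* (0.30 ± 0.11, adjusted p = 0.0461) was lost without any of unstimulated libraries a (0.25) and c (0.30) and *E. coli* replicates 1 (0.29), 2 (0.32) and 3 (0.32). With IFN-γ, *Tmem127* (0.32 ± 0.11, adjusted p = 0.0278) lost its call without unstimulated library a (0.27) or IFN-γ replicate 1 (0.32) or 3 (0.32), and *Wwp2* (0.35 ± 0.11, adjusted p = 0.0242) without unstimulated library a (0.30) or c (0.34) or IFN-γ replicate 2 (0.35).

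The genes whose log2 CPM followed the mean of the standardised members most closely over the 12-library set were *Zbp1* (Pearson r = 0.988), *Psme1* (0.987), *Samhd1* (0.984), *Psmb8* (0.984), *Creg1* (0.981), *Slc40a1* (0.978), *Casp1* (0.977), *Mcl1* (0.977), *Mnt* (0.976) and *Ctsh* (0.975), out of 9873 genes. The members themselves correlated with their mean at 0.887 (*B2m*) to 0.985 (*Tapbp*). Each member is part of that mean, so a high value is partly built in and is not read as a result. The mean also holds *H2-K1*, *H2-D1* and *B2m*, whose counts lay near the limit. These libraries fall into groups set by the stimuli, so the coefficients of genes outside the members describe shared group differences. The coefficients carry no p.

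Markers of cell types were read in the same libraries. For their counts of calls, the shares of all genes called higher and lower were 13.5% and 16.7% with *E. coli*, 15.6% and 16.0% with IFN-γ, 23.9% and 25.2% with both, and 5.97% and 4.35% with IL-4. Of 10 eosinophil markers, the receptors *Siglecf* and *Ccr3* were high, at 1020 ± 127 and 1431 ± 246 CPM (mean ± SD, n = 3) in unstimulated libraries a to c. The granule protein gene *Epx* was near 0, at 0 to 3.61 CPM over all 18 libraries. The summed markers stood at 3842, 5139 and 3990 CPM in unstimulated libraries, 3519, 3117 and 3533 with *E. coli*, 4071, 3605 and 4446 with IFN-γ, and 3275, 2893 and 3125 with both, with *Alox15* or *Ccr3* the most abundant. These sums are not corrected for the count limit. Corrected for it, *Alox15* alone stood at 2793, 3034 and 2458 CPM in unstimulated libraries, 1956, 1697 and 1696 with *E. coli*, 2218, 1884 and 2302 with IFN-γ, and 1075, 959 and 1145 with both, where the uncorrected values were 1391, 2026 and 1443, then 1315, 1106 and 1348, then 1643, 1449 and 1798, and 1109, 959 and 1141. In the 6-library set the summed eosinophil markers stood at 5173, 6002 and 5293 CPM unstimulated and 5031, 5234 and 5104 with IL-4. Of 6 tested, 1 was higher and 2 lower with *E. coli*, 4 were lower with IFN-γ, and 1 was higher and 4 lower with both, and of 10 tested 4 were higher and 1 lower with IL-4. With both, the marker called higher lost its call without unstimulated library a or c or replicate 2 of both stimuli, and with IFN-γ 1 was higher without unstimulated library b. With IL-4, 2 were higher without unstimulated library d and 1 without library f or any 1 IL-4 library, and the marker called lower lost its call without IL-4 replicate 1 or 3. The level of *Siglecf* was 952, 1167 and 942 CPM without a stimulus in the 12-library set and 353, 322 and 371 with both.

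The summed macrophage markers, like the members, were lower with *E. coli* on average and higher with IFN-γ. The 7 markers summed to 686, 539 and 657 CPM in unstimulated libraries a to c, 299, 268 and 572 with *E. coli*, 1030, 996 and 980 with IFN-γ, and 873, 1083 and 1233 with both. The most abundant was *C1qc* or, with IFN-γ or both, *Marco*, and *Mrc1* was at 0 in unstimulated library b and IFN-γ replicate 1. Of 6 tested, 2 were lower with *E. coli* (16.7% of all genes), 2 higher and 1 lower with IFN-γ (15.6% and 16.0%), and 2 higher with both (23.9%). Without *E. coli* replicate 3, 5 were lower with *E. coli*, and the marker lower with IFN-γ lost its call without unstimulated library a or c or any 1 IFN-γ library. In the 6-library set the sums were 1758, 1947 and 2323 CPM unstimulated and 1572, 1480 and 1714 with IL-4, and 2 of 7 were lower (4.35%). Single markers differed there, *Marco* averaging 195 CPM unstimulated and 28.6 with IL-4, and *Timd4* 61.3 and 88.4. Of these 7, 1 was lower without unstimulated library f or any 1 IL-4 library, and 1 was higher without unstimulated library e or f. The 5 B cell markers summed to 88.7, 91.3 and 53.3 CPM unstimulated, 24.9, 18.7 and 32.6 with *E. coli*, 38.1, 29.2 and 28.8 with IFN-γ, and 54.8, 72.3 and 62 with both, led by *Cd79a*. Of 4 tested, 4 were lower with *E. coli* (16.7%) and 3 lower with IFN-γ (16.0%), and 1 was lower with both without unstimulated library c. In the 6-library set they summed to 6.39, 5.3 and 13.8 CPM unstimulated and 19.6, 19.1 and 31.1 with IL-4, and 2 of 3 were higher (5.97%), 1 without unstimulated library d or IL-4 replicate 2 and none without IL-4 replicate 1 or 3. *Pax5* was at 0 in *E. coli* replicate 2, IFN-γ replicate 3 and unstimulated libraries e and f.

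The 5 mast cell markers summed to 9.69, 8.24 and 7.43 CPM unstimulated, 9.79, 6.69 and 34.6 with *E. coli*, 30.2, 14.4 and 13.1 with IFN-γ, and 35.8, 70.1 and 66.6 with both, led by *Tpsb2* or *Cma1*, and *Mcpt4* was at 0 in all libraries of the 12-library set but unstimulated library c and *E. coli* replicate 3. Of 2 tested, 1 was higher with IFN-γ (15.6% of all genes) and 2 with both (23.9%), the first lost without unstimulated library a, b or c or IFN-γ replicate 1. Neutrophil markers summed to 5.22, 2.54 and 7.43 CPM unstimulated, 6.12, 4.01 and 5.43 with *E. coli*, 20.2, 20.5 and 25.5 with IFN-γ and 16.8, 14.2 and 13.2 with both. *Ly6g* was the most abundant and the single marker tested, called higher with IFN-γ and with both, and *Ltf* was at 0 in all libraries of the 12-library set but *E. coli* replicate 1. Erythroid markers summed to 45.8, 76.7 and 72.3 CPM unstimulated, 60.4, 58.8 and 127 with *E. coli*, 135, 107 and 53.6 with IFN-γ, and 123, 157 and 110 with both, led by *Hbb-bs* or *Hba-a2*, and 3 of 4 tested were higher with both (23.9%), but 1 without unstimulated library a or replicate 2 of both stimuli. In the 6-library set the mast cell, neutrophil and erythroid sums averaged 7.32, 4.58 and 99.3 CPM unstimulated and 15.2, 4.67 and 83.6 with IL-4. Of 4 erythroid markers tested there, 1 was lower with IL-4 (4.35%), a call lost without unstimulated library d or e or any 1 IL-4 library. In the 12-library set 1 was higher with *E. coli* without *E. coli* replicate 1, and with IFN-γ 1 was without unstimulated library b and 2 without IFN-γ replicate 3. Dendritic cell markers, led by *Xcr1*, averaged 4.62 to 6.65 CPM in the 12-library set, 5.93 in unstimulated libraries d to f and 13 with IL-4, where 1 of 2 tested was higher (5.97%), a call lost without any 1 of the 6 libraries. T cell markers averaged 2.96 to 5.98 CPM, led by *Cd3d*, with 1 lower with IFN-γ without unstimulated library c, and NK cell and mesothelial markers stayed under 1 CPM on average in every group. The part of these cell types in the results was not tested.

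Promoter sequence was read for the members, since 7 of them rose with IFN-γ. RefSeq promoter windows of 300 bases (GRCm38.p6) matched 7 of the 10 members by symbol, with 8 windows since *H2-K1* has 2, and *Nlrc5*, *Tap2* and *Tapbpl* had no entry. The motifs reported, from a search of both strands that also held 1 motif not described here, are the ISRE of interferon-regulated factors as TTTCNNTTTC, CCAAT, the CRE-like TGACG, and the NF-κB consensus by its name. ISRE letters occurred in *B2m*, *H2-T23* and *Erap1*, against 3.43% of 32817 promoters. CCAAT letters (37.4% of all promoters) occurred in all matched members but *Erap1*, TGACG (20.8%) in *H2-K1*, *H2-D1*, *B2m* and *Tap1*, and the NF-κB consensus (4.5%) in *H2-K1*, *H2-D1* and *B2m*. The windows with ISRE letters are shown because these members stood on both sides of the test with IFN-γ alone, *H2-T23* and *Erap1* called and *B2m*, at the count limit, not called. By edgeR, *B2m* was called higher there after the correction for that limit (0.48, adjusted p = 0.0123). It was also called without unstimulated library b (0.58, adjusted p = 0.0105), so its side of the test is uncertain. Capitals mark the ISRE letters, which overlap no other motif searched. The windows are chr2:122147437-122147736 on the plus strand for *B2m*, chr17:36032652-36032951 on the minus strand for *H2-T23* and chr13:74639603-74639902 on the plus strand for *Erap1*, each 5′ to 3′. The *Erap1* window lies inside the gene span given above, which starts at 74639568. So do those of *Tapbp* (window from 33919228, gene from 33915899) and *H2-D1* (35262844 and 35262730). These windows hold no bases upstream of that annotated gene start. A match is a description, not a site or a cause, and no match says only that the letters are not in the window.
B2m: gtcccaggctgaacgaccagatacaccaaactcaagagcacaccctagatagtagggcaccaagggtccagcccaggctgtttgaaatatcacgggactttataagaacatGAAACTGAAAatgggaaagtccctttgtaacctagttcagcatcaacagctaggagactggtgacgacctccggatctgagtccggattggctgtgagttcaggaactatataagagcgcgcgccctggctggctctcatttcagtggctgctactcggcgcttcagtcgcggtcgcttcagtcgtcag
H2-T23: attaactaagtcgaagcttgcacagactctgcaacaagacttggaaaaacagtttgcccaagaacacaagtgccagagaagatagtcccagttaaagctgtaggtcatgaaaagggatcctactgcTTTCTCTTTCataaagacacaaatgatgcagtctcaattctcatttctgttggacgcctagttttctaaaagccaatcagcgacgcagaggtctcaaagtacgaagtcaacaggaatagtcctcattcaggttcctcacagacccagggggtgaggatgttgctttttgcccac
Erap1: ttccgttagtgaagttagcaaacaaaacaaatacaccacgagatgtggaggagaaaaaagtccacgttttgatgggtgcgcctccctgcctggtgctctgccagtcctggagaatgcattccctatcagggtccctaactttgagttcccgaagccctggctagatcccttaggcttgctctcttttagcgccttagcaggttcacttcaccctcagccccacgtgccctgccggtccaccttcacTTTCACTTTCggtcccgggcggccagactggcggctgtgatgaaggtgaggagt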

How the data were processed

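The authors deposited whole-number counts per Ensembl gene for each library. CEL-Seq2 reads were aligned to GRCm38 with Tophat2 2.1.0 and counted with HTSeq 0.6.1 according to the study's methods and the submitters' processing notes. These notes also name fastp 0.20.1 and STAR 2.7.2a without saying for which libraries. In the 12-library set, 18.9% to 37.6% of the counts listed were on no feature and 1.84% to 2.27% were ambiguous, and both were left out of totals and tests. The 6-library set lists no such counts.

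The counts were filtered with edgeR's filterByExpr, normalised by TMM and compared with edgeR 4.0.16's quasi-likelihood test in R 4.3.3 (limma 3.58.1), after a test on simulated data. Adjusted p-values are Benjamini-Hochberg over all genes tested. SE is the log2 fold change divided by the square root of F, an approximation. Alternatives were DESeq2 1.42.0, its size factors, no or a stricter count filter, a 2-fold threshold, the 6 libraries compared alone, all 6 unstimulated libraries as 1 group, a correction for the count limit, summed heavy chains, a replicate block and each library left out in turn. A level of 3 counts equals 1.10 to 1.97 CPM in the 12-library set and 0.463 to 0.828 CPM in the 6-library set, for counting error only. Identifiers were matched to GENCODE M21 names for 98.3% and 99.7% of listed genes. Of the peptidase list *Nrdc* was not matched and *Thop1* did not pass the filter. All members were described. From each pathway list the called genes with the highest mean CPM, at most 4, or any list of 3 or fewer in full, could be named, and *Psmb9*, *Irf1*, *Lap3* and others follow that rule. The members and lists were chosen with earlier results of these data known.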

Additional observations from a re-analysis of the deposited data

Results flagged for a closer look

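For *Tap2*, *Tapbpl* and *Nlrc5* the change with *E. coli* differed between cells with and without IFN-γ by a test of the difference itself (edgeR). The interaction was 0.70 for *Tap2*, 0.73 for *Tapbpl* and 0.91 for *Nlrc5* on the log2 scale. The call of *Tap2* held with each of the 12 libraries left out in turn, that of *Tapbpl* was lost without any of 6 of them, and that of *Nlrc5* without any of 4.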

How the results depend on the processing

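Of 100 member values (10 genes in 10 comparisons), 97 kept direction and side of the threshold with DESeq2, 100 with its size factors, 92 with no filter on low counts and 95 with at least 10 counts in every library. The study's own rule also required at least 2-fold change, which is stricter by construction. With that change required here, members called were 0 lower with *E. coli*, 4 higher with both, 0 with IL-4, 6 with both against *E. coli*, 0 in the interaction, and 2 and 3 lower for IL-4 against the IFN-γ and joint responses. All genes called higher and lower were then 350 and 673 (*E. coli*), 496 and 691 (IFN-γ), 915 and 1295 (both), 326 and 152 (IL-4), 218 and 186 (both against IFN-γ), 753 and 572 (both against *E. coli*), 635 and 392 (IFN-γ against *E. coli*), and 157 and 88 (interaction), with 787 and 1273 lower in the IL-4 contrasts.

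Corrected for the count limit, which assumes 4096 equally frequent tags, 7 members were lower with *E. coli*. The share of all genes lower after this correction is not given here. Values turned for *H2-K1* (both against IFN-γ -0.17, IL-4 against the joint response 0.17), *H2-D1* (both -0.04, both against IFN-γ -0.20), *H2-T23* (IL-4 against the IFN-γ response -0.00) and *B2m* (both against IFN-γ -0.08). The correction was not run on the 6-library set, whose counts exceed that limit. With no filter, 719 genes were lower with IL-4 and 316 in the interaction, and *Psmb5* with IFN-γ stood at 0.01. With at least 10 counts in every library, *B2m* for IL-4 against the IFN-γ response stood at 0.02. The cause was not tested.

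With all 6 unstimulated libraries as 1 group, which merges the sets, 805 genes were higher with *E. coli*, 1010 with IFN-γ and 970 lower with IL-4. Values turned with *E. coli* for *H2-T23* (0.77), *Tapbpl* (0.02), *Canx* (-0.25) and *Blmh* (-0.06). With IFN-γ they turned for *H2-K1* (-1.0), *H2-D1* (-0.43), *B2m* (-1.57), *Tapbp* (-0.42), *Psmb5* (0.90), *Psmb6* (-0.09), *Calr* (-0.09), *Canx* (-0.25) and *Nfkb1* (0.04). With both they turned for *H2-K1* (-0.93), *H2-D1* (-0.30), *B2m* (-1.39), *Tapbp* (-0.33) and *Canx* (-0.11), and with IL-4 for *H2-D1* (0.44), *H2-T23* (-1.48), *Psmb6* (0.16), *Psmb7* (-4.61), *Canx* (0.18) and *H2-T22* (-0.82). *H2-T23* with IFN-γ lost its call (1.45, adjusted p = 0.094), and *H2-K1* (-1.60, adjusted p = 0.0288), *B2m* (-2.08, adjusted p = 0.0322) and *Tapbp* (-1.63, adjusted p = 0.0268) were called lower with *E. coli*. Of the pathway values, 15 lost and 2 gained a call without a turn in sign.

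With 1 library left out at a time, ranges were 2 to 6 members, 311 to 812 genes higher and 171 to 582 lower with IL-4. They were 0 to 1 member, 374 to 547 higher and 336 to 575 lower for both against IFN-γ, and 1 to 3 members, 138 to 355 higher and 112 to 276 lower for the interaction. Values that changed sign ranged from -0.04 to 0.16 (*H2-K1*), -0.04 to 0.07 (*Tap1*) and -0.06 to 0.19 (*Tapbp*) for both against IFN-γ. They ranged from -0.36 to 0.04 (*H2-D1*), -0.18 to 0.02 (*H2-T23*) and -0.35 to 0.08 (*B2m*) with *E. coli*, and from -0.06 to 0.22 (*H2-T23*) and -0.36 to 0.05 (*B2m*) for IL-4 against the IFN-γ response. With IL-4 they were -0.00 to 0.32 (*Tapbp*) and -0.34 to 0.46 (*Psmb7*), and with IFN-γ -0.11 to 0.14 (*Psmb5*).

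Pairing of same-numbered replicates is not stated. With the replicate number as a block, 29 of 30 member values kept their side, and *B2m* with IFN-γ against *E. coli* passed the test. Correlations of same-numbered libraries ran from -0.045 to 0.331.

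Of 102 values of named pathway genes, 4 lost a call with DESeq2 (*Blmh*, *Nfya*, *Vamp8* and *Wwp2*, all with *E. coli*) and 1 gained it (*Calr* with IL-4), and *Vamp8* also lost it with DESeq2's size factors. With no filter 8 lost it (*Psme1*, *Vamp8* and *Wwp2* with *E. coli*, *Nfkb1*, *Tmem127* and *Wwp2* with IFN-γ, *Psmb5* and *Pdia3* with both) and 4 gained it (*Calr* and *Canx* with *E. coli*, *Psmb5* and *Calr* with IL-4). With at least 10 counts in every library 4 of 101 lost it (*Nfya* and *Wwp2* with *E. coli*, *Lnpep* with IFN-γ, *Psmb5* with both). With only the 6 libraries compared 6 of 81 lost it (*Psme1*, *H2-Q7*, *Nfya*, *Cybb* and *Vamp8* with *E. coli*, *Psmb5* with both) and 3 gained it (*Calr*, *Canx* and *Tmem127* with *E. coli*). Corrected for the count limit, *Lnpep* with IFN-γ and *Wwp2* with *E. coli* lost it.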
